A study of Mus musculus with 6 samples.

Results

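The Id proteins Id2 and Id3 and the E proteins they bind, encoded by Tcf3, Tcf4 and Tcf12, were followed in CD4 T cells. The cells had high, labelled deficient and unmodified Blimp-1. All 5 genes were found by matching the identifiers of the deposited table to gene symbols, among 28914 genes. The RNA came from splenic CD4 T cells, sorted as a whole population from NOD mice aged 12 weeks and given no further T cell receptor stimulation; NOD mice develop autoimmune diabetes spontaneously. The 6 libraries form 3 groups of 2: cells labelled as overexpressing Blimp-1 (BTg), cells labelled as Blimp-1 knockout (CKO), and controls (WT). The labels used here name neither the promoter behind the overexpression nor the way the knockout was made, and they do not say whether a group's pair of libraries came from different animals. The p-values therefore measure only the spread between these libraries, which may be technical.

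E proteins are basic helix-loop-helix transcription factors that pair with each other and bind E-box DNA motifs. Id proteins keep the helix-loop-helix but lack the basic region that touches DNA, so that an E protein paired with an Id protein cannot bind its sites. In mouse CD4 T cells Id2 and Id3 are known to hold back the follicular helper programme, and in mouse CD8 T cells Blimp-1, the transcriptional repressor encoded by Prdm1, is known to repress Id3. The comparisons below give the transcript levels of both sides of this pairing as Blimp-1 differs.

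Levels are FPKM, fragments scaled to merged exon length in kilobases and to library depth, and the libraries held 14958458 to 17799091 counted reads. Prdm1 stood at 73.7 and 113 FPKM in BTg and at 3.19 and 2.52 FPKM in CKO, against 1.72 and 2.36 FPKM in WT. Prdm1 was thus not lower in the libraries labelled CKO than in WT, and CKO below means the libraries with that label, on which each direction drawn from them rests. Cd4 was at 126 to 243 FPKM in all 6 libraries, Cd8a at no more than 0.202 FPKM and Cd8b1 at 1.67 to 8.08 FPKM. On the leading principal component, with 57.5% of the variance, 1 library lay away from the other 5, the one labelled CKO replicate 1. Its 6 neutrophil markers summed to 14159 FPKM, against 260 FPKM in CKO replicate 2 and at most 189 FPKM in the other libraries, and its 6 T cell markers had the lowest sum, 682 FPKM against 933 to 1407 FPKM elsewhere.

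Both Id genes had their lowest levels in the BTg libraries, while Tcf3 and Tcf12 had nearly equal group means in all 3 groups. Tcf4, the least abundant of the 5 per merged exon length, had its highest group mean in CKO. None of the 5 passed the threshold of adjusted p under 0.05 in any comparison with limma, a linear model fitted to all genes with a shared estimate of the spread. The differences between groups are given with that limit.

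**Figure D1:**
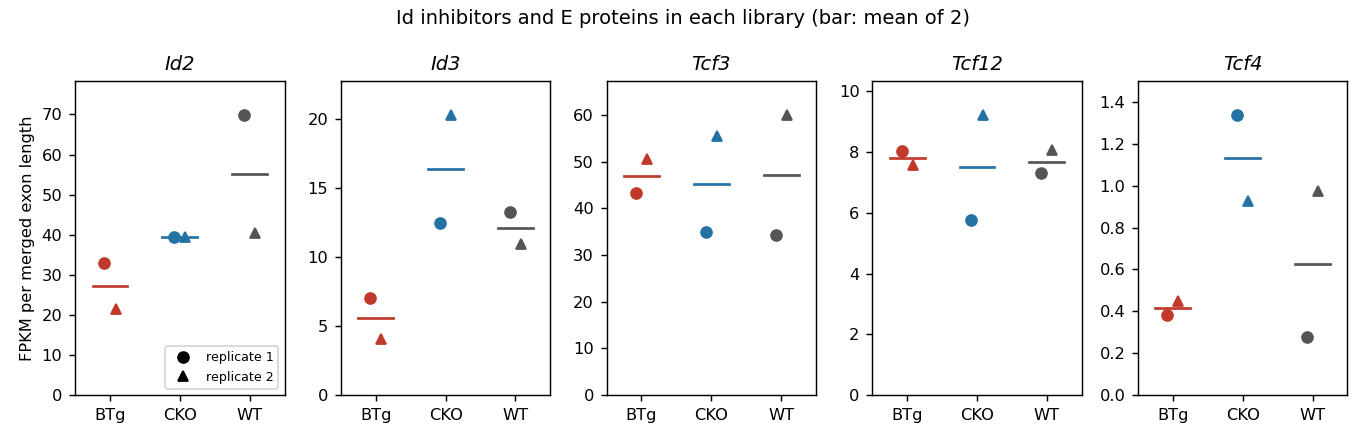
Level of each gene in each library, in FPKM per merged exon length on a linear axis from 0, with circles for replicate 1, triangles for replicate 2 and a bar at the mean of the 2. Id3 lies at 4.07 and 6.99 FPKM in BTg, below every CKO and WT library, while Tcf3 spreads more within CKO and WT than between the group means.

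Id3, an inhibitor that T cell receptor signalling induces through Egr factors, lies on chromosome 4 from 136143497 to 136145755 on the plus strand (GRCm38), and no other annotated gene overlaps it. It was counted at 6.99 and 4.07 FPKM in BTg, from 191 and 109 reads. In CKO it was at 12.5 and 20.3 FPKM, from 397 and 644 reads, and the WT libraries gave 13.2 and 10.9 FPKM (422 and 298 reads). Both BTg libraries were thus below all of the other 4, while the CKO libraries lay on both sides of the higher WT library. With no overlap, 11.5% of all genes tested were lower in BTg than in WT, and 24.2% lower in BTg than in CKO. The share lower than all of the other 4 was not counted. The BTg mean was 5.53 ± 2.07 FPKM and the WT mean 12.1 ± 1.66 FPKM (SD, n = 2 each), a ratio of 0.458.

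On the log2(FPKM + 1) scale, which understates the change of low genes, the difference of Id3 between BTg and WT was -1.03 (SE 0.34, 95% interval -1.85 to -0.21). Its unadjusted limma p was 0.021 and its adjusted p = 1. Between BTg and CKO the means were 5.53 ± 2.07 and 16.4 ± 5.53 FPKM, and the log2 difference was the widest of the 5 genes in any comparison by this fit, -1.41 (SE 0.34, interval -2.23 to -0.59). Its unadjusted limma p was 0.00508 and its limma adjusted p = 0.252. Between CKO and WT it was 0.38 (SE 0.34, interval -0.44 to 1.199; limma adjusted p = 1). This last difference was 0.05 without CKO replicate 2, 0.71 without CKO replicate 1 and 0.25 without WT replicate 2. In these bulk samples fewer cells with a transcript and less of it per cell cannot be told apart.

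Id2, an inhibitor abundant in effector T cells, natural killer cells and innate lymphoid cells, lies on chromosome 12 from 25093799 to 25097140 on the minus strand, with no overlapping gene. The BTg libraries gave 32.8 and 21.4 FPKM (1221 and 780 reads), and the CKO libraries 39.4 and 39.5 FPKM (1708 and 1706 reads). The WT libraries gave 70.0 and 40.5 FPKM (3033 and 1507 reads). The 3 groups did not overlap, with BTg lowest and WT highest, but WT replicate 2 lay next to the CKO libraries, and the WT pair differed 1.73-fold between themselves. That gap, 0.77 in log2, was wider than in 85.0% of the genes tested in WT.

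The difference of Id2 between BTg and WT was -0.98 (SE 0.36, interval -1.83 to -0.13). Its unadjusted limma p was 0.03 and its limma adjusted p = 1. Without WT replicate 1 it was -0.59. Between CKO and WT it was -0.43 (SE 0.36, interval -1.28 to 0.43; limma adjusted p = 1), and this was -0.04 without WT replicate 1 and -0.81 without WT replicate 2. Between BTg and CKO it was -0.55 (SE 0.36, interval -1.41 to 0.30; limma adjusted p = 0.625), which was -0.85 without BTg replicate 1 and -0.26 without BTg replicate 2. The 5 natural killer cell markers summed to 2.58 and 3.97 FPKM in BTg, to 1.18 and 2.12 FPKM in CKO, and to 2.78 and 3.10 FPKM in WT. Klra4 made 1.05 and 2.85 FPKM of the BTg sums, against 0.361 and 0.684 FPKM in WT. By group mean 4 of the 5 markers were lower and 1 higher in BTg than in WT, and likewise in CKO than in WT. Between BTg and CKO 3 of the markers were higher and 2 lower. Ncr1, the defining receptor among them, had 14 to 32 reads in each library. Cd8b1, a chain of the CD8 coreceptor, stood at 3.23 and 2.79 FPKM in BTg, 1.67 and 3.99 FPKM in CKO, and 8.08 and 4.20 FPKM in WT, so that WT replicate 1 was highest for it and for Id2. Cd8a, the other CD8 marker, had 6 and 7 reads in BTg, 5 and 13 in CKO, and 3 and 7 in WT. It was thus lowest in WT replicate 1. By group mean 1 of these 2 markers was higher and 1 lower in each comparison. The part of natural killer and CD8 T cells in the Id2 level was not tested.

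The promoter windows of both Id genes are shown because they are the pair with their lowest levels in BTg, where the DNA-binding repressor Blimp-1 is high. The 250 bases before each RefSeq start (GRCm38.p6) are read 5′ to 3′ on the gene's strand, chr12:25096093-25096342 on the minus strand for Id2 and chr4:136143572-136143821 on the plus strand for Id3. Capitals mark an E-box, CANNTG, the motif that E proteins bind.
Id2: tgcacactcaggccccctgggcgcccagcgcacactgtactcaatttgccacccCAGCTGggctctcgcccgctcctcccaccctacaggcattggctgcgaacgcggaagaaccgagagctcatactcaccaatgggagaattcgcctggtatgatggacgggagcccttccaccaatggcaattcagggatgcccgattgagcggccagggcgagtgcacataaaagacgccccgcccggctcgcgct
Id3: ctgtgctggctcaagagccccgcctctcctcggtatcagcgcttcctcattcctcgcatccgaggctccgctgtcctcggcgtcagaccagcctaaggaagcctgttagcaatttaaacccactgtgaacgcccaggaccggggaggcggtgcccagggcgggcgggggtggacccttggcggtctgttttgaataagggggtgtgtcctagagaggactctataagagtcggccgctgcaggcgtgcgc
The Id2 window held 1 E-box, from 196 to 191 bases before the start, and the Id3 window held none. An E-box was present in 66.2% of 32851 promoter windows, each also cut to the 250 bases before its start. The core of the Blimp-1 motif, GAAAG or CTTTC on the other strand, was in neither window and in 51.5% of all windows, and the Egr motif GCGNGGGCG or CGCCCNCGC was in neither and in 4.7% of all. Both windows had 62.8% G and C. The annotated genes begin further upstream, at 25097140 for Id2 and at 136143497 for Id3, so both windows lie inside them. Bases upstream of the windows were not scanned. These counts describe letters in the windows, and no binding was measured here.

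Tcf3 encodes E12 and E47, splice forms that are the main E proteins of B cells and are needed early in T cell development. It lies on chromosome 10 from 80409514 to 80433647 on the minus strand. Its level was 43.3 and 50.5 FPKM in BTg, 34.9 and 55.5 FPKM in CKO, and 34.4 and 60.1 FPKM in WT, from 2470 to 3973 reads. Both BTg libraries lay inside the range of the WT libraries and inside that of the CKO libraries. In each group replicate 2 was the higher one, and the gap was 1.17-fold in BTg, 1.59-fold in CKO and 1.75-fold in WT.

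The group means of Tcf3 were 46.9 ± 5.13 FPKM in BTg, 45.2 ± 14.5 FPKM in CKO and 47.3 ± 18.2 FPKM in WT. The log2 difference was 0.04 between BTg and WT (interval -0.85 to 0.93), -0.05 between CKO and WT (interval -0.94 to 0.85) and 0.09 between BTg and CKO (interval -0.81 to 0.98). Limma adjusted p was 1, 1 and 0.94 in that order. The intervals leave room for a difference of nearly 2-fold either way, so the equal means do not show an equal level.

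Tcf12 encodes HEB, the partner of E2A forms in thymocytes. It lies on chromosome 9 from 71842688 to 72111871 on the minus strand, and 11 other annotated genes overlap it, 10 of them in the table with 23 to 73 reads a library in sum. The level of Tcf12 was 8.03 and 7.57 FPKM in BTg, 5.78 and 9.24 FPKM in CKO, and 7.31 and 8.06 FPKM in WT, from 1597 to 2543 reads. The 2 CKO libraries bracketed all of the others.

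The means of Tcf12 were 7.8 ± 0.329 FPKM in BTg, 7.51 ± 2.44 FPKM in CKO and 7.69 ± 0.527 FPKM in WT. Its log2 difference was 0.02 between BTg and WT (interval -0.64 to 0.68), -0.06 between CKO and WT (interval -0.72 to 0.60) and 0.08 between BTg and CKO (interval -0.58 to 0.74). Limma adjusted p was 1, 1 and 0.924. Without CKO replicate 1 the differences that use CKO turned sign, to 0.24 between CKO and WT and to -0.22 between BTg and CKO. The first also lost its sign without WT replicate 2 (0.00246), and that between BTg and WT turned without BTg replicate 1 (-0.019) or WT replicate 1 (-0.042). For Tcf3 the difference between BTg and WT turned without BTg replicate 2 (-0.071) or WT replicate 1 (-0.36), that between CKO and WT without CKO replicate 1 (0.28) or WT replicate 2 (0.35), and that between BTg and CKO without BTg replicate 2 (-0.024) or CKO replicate 1 (-0.24).

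Tcf4 encodes E2-2, the E protein that directs plasmacytoid dendritic cells and is also used by B cells. It lies on chromosome 18 from 69343356 to 69689079 on the plus strand. Its level was 0.383 and 0.449 FPKM in BTg, from 160 and 184 reads, and 1.34 and 0.927 FPKM in CKO, from 653 and 450 reads. In WT it was 0.277 and 0.976 FPKM, from 135 and 408 reads. Both BTg libraries were below both CKO libraries, and the WT libraries lay 3.52-fold apart, with one below BTg and the other between the CKO libraries. Among the 13488 genes that passed the filter, which leave out Tcf4, 24.2% were likewise lower without overlap in BTg than in CKO.

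Only CKO replicate 1 reached 1 FPKM, so Tcf4 missed the filter of 1 FPKM in 2 libraries and its differences come from the fit without a filter. They were -0.17 between BTg and WT (SE 0.28, interval -0.90 to 0.56; limma adjusted p = 1), 0.42 between CKO and WT (SE 0.28, interval -0.31 to 1.15; limma adjusted p = 0.92) and -0.58 between BTg and CKO (SE 0.28, interval -1.32 to 0.15; limma adjusted p = 0.646). At these levels the added 1 FPKM compresses the scale. On reads recovered from the FPKM, limma voom gave 1.14 (SE 0.56; adjusted p = 0.874) between CKO and WT and -1.42 (SE 0.57; adjusted p = 0.332) between BTg and CKO. On the log2(FPKM + 1) scale the difference between BTg and WT was -0.48 without WT replicate 1 and turned to 0.15 without WT replicate 2. That between CKO and WT was 0.10 without WT replicate 1, 0.73 without WT replicate 2 and 0.28 without CKO replicate 1.

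The summed markers of B cells, of plasmacytoid dendritic cells and of plasma cells were also highest in CKO. So were those of neutrophils and of monocytes and macrophages. By group mean all 6 neutrophil markers and all 4 of monocytes and macrophages were higher in CKO than in WT. All of these were lower in BTg than in CKO. The monocyte and macrophage sum was 716 and 104 FPKM in CKO, against at most 67.1 FPKM in WT and 16.2 FPKM in BTg. The B cell and plasmacytoid dendritic cell lists were split in direction. By group mean all 5 plasma cell markers were higher in CKO than in WT and lower in BTg than in CKO. Their sum was 2156 and 529 FPKM in CKO, against at most 366 FPKM in the other groups. The 7 B cell markers summed to 13.4 and 16.6 FPKM in BTg, 62.2 and 27.3 FPKM in CKO, and 15.2 and 26.2 FPKM in WT. Most of that sum was Cd79a and Cd79b, and the B cell genes Pax5, Ebf1 and Ms4a1 each stayed under 1 FPKM in all libraries. By group mean 3 of the 7 were higher and 4 lower in CKO than in WT. The 6 markers of plasmacytoid dendritic cells summed to 8.16 and 8.14 FPKM in BTg, 20.1 and 16.6 FPKM in CKO, and 7.35 and 10.2 FPKM in WT, of which Lag3, which T cells also express, made 17.4 and 11.2 FPKM in CKO. By group mean 3 of the 6 were higher and 3 lower in CKO than in WT. Siglech, a surface receptor of these cells, had 9 and 18 reads in BTg, 5 and 110 in CKO, and 11 and 69 in WT, with the fewest in CKO replicate 1, where Tcf4 was highest. Ccr9, a chemokine receptor, stood at 4.05 and 3.32 FPKM in BTg, 0.334 and 1.04 FPKM in CKO, and 1.75 and 1.30 FPKM in WT. The part of any of these cell types in the Tcf4 level was not tested.

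**Figure D2:**
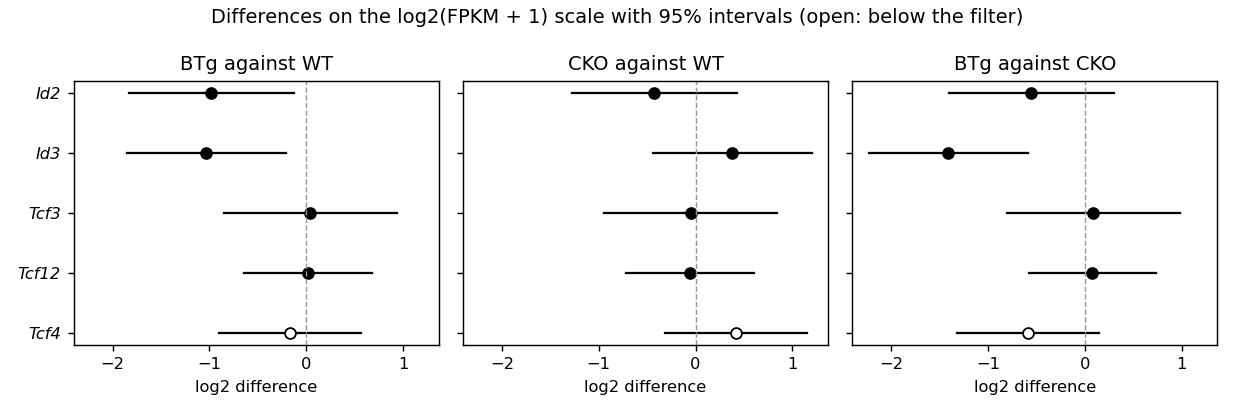
Log2 difference of each gene in the 3 comparisons, on the log2(FPKM + 1) scale, with its 95% interval from limma; the open point marks Tcf4, which missed the filter. The intervals of Id2 and Id3 lie below 0 between BTg and WT, and that of Id3 also between BTg and CKO, before adjustment for the 13488 genes tested.

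These counts were read against all genes. Of the 5 genes 4 passed the filter, and 0 of the 5 passed the threshold in any comparison. Over all 13488 genes tested, limma called 0.0148% between BTg and WT (2 genes), 0% between CKO and WT (0 genes) and 0.0667% between BTg and CKO (9 genes). At unadjusted p under 0.05 the shares were 1.61%, 4.86% (655 genes) and 10.7%. The fit without a filter, which gives Tcf4, called 0% in each. Limma voom called 0.0377% of 15927 genes between BTg and WT (6 genes), 0% between CKO and WT (0 genes, with 5.98% at unadjusted p under 0.05) and 0.182% between BTg and CKO (29 genes), again with none of the 5. Id2 and Id3 were lower with no overlap in BTg than in WT, as were 11.5% of all genes tested. Id2 was lower with no overlap in CKO than in WT, as were 9.41% of genes, and Id2 and Id3 in BTg than in CKO, as were 24.2%. At unadjusted p under 0.05, 0.942% of genes were lower in BTg than in WT, Id2 and Id3 among them, and 7.69% lower in BTg than in CKO, Id3 among them. How many genes had both BTg libraries below all of the other 4 was not counted. The comparisons share libraries, so they are not separate evidence.

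The balance of inhibitors and partners was taken as the summed FPKM of Id2 and Id3 over the summed FPKM of Tcf3, Tcf4 and Tcf12. The Id sum was 39.8 and 25.5 FPKM in BTg, 51.8 and 59.7 FPKM in CKO, and 83.2 and 51.4 FPKM in WT. The E protein sum was 51.7 and 58.6 FPKM in BTg, 42.0 and 65.6 FPKM in CKO, and 42.0 and 69.2 FPKM in WT. The Id sum of both BTg libraries lay below those of the other 4, which follows from Id2 and Id3 each doing so. The E protein sums overlapped among all groups.

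The ratio of Id to E protein transcripts was 0.77 and 0.435 in BTg, 1.23 and 0.91 in CKO, and 1.98 and 0.743 in WT. Both BTg libraries were below both CKO libraries, and WT replicate 2 fell between the BTg libraries. The ratios are given without a test, since the genes were chosen with earlier results of these data known. Within the inhibitors, the ratio of Id2 to Id3 was 4.7 and 5.26 in BTg, 3.16 and 1.95 in CKO, and 5.28 and 3.72 in WT, with both CKO libraries below all of the other 4.

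**Figure D3:**
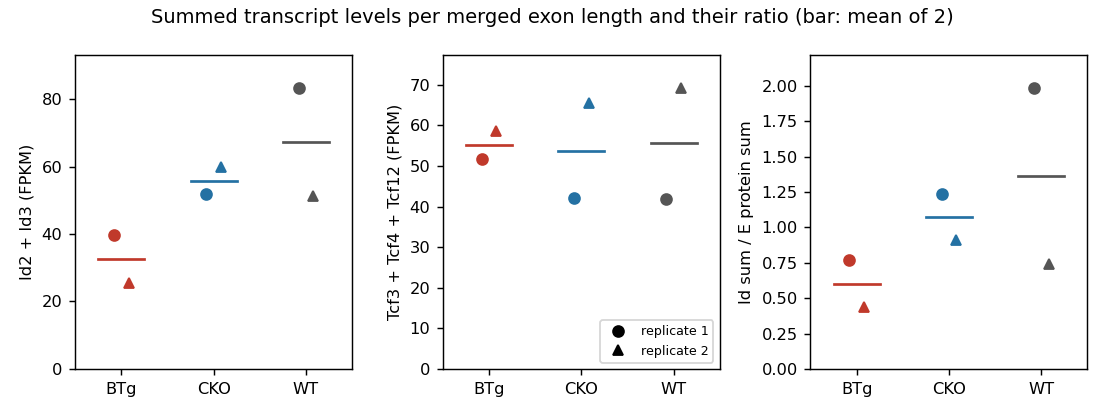
Summed FPKM of the Id genes, summed FPKM of the E protein genes, and their ratio in each library, on linear axes from 0, with circles for replicate 1, triangles for replicate 2 and a bar at the mean. The Id sum lies at 25.5 and 39.8 FPKM in BTg, below every other library, as it must since Id2 and Id3 each do. The ratio spans 0.743 to 1.98 within WT alone.

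The order of levels between the 5 genes depended on the gene length used. Per merged exon length, Tcf3 (34.4 to 60.1 FPKM) and Id2 (21.4 to 70.0 FPKM) stood highest with overlapping ranges. Id3 (4.07 to 20.3 FPKM) and Tcf12 (5.78 to 9.24 FPKM) followed, also overlapping, and Tcf4 (0.277 to 1.34 FPKM) lay below them. Merged exons pool 62 annotated transcripts of Tcf4 and 21 of Tcf12, but 3 each of Id2 and Id3. Per median spliced transcript length, Tcf12 stood at 50.4 to 80.6 FPKM, within the range of Tcf3 at 49.1 to 85.9 FPKM, and Tcf4 at 8.07 to 39.0 FPKM, overlapping Id3 at 9.87 to 49.2 FPKM. The ratio of Id to E protein transcripts was then 0.559 and 0.337 in BTg, 0.76 and 0.669 in CKO, and 1.38 and 0.565 in WT. Both BTg libraries lay below all of the others on this scale, but narrowly, with 0.559 in BTg replicate 1 against 0.565 in WT replicate 2. Per merged exon length and on FPKM as deposited, WT replicate 2 lay below BTg replicate 1 (0.743 against 0.77, and 6.08 against 6.28).

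Genes whose levels followed each of the 5 most closely were taken from 9311 protein-coding genes (9312 for Tcf4) with a mean of at least 2 FPKM, by Pearson's r over the 6 libraries, as a description with no test. Id2 was closest to Cxcr6, the receptor for the chemokine CXCL16 on effector T cells, with r = 0.987. Cxcr6 stood at 16.0 and 11.6 FPKM in BTg, 19.6 and 19.6 FPKM in CKO, and 41.6 and 21.2 FPKM in WT, the same order of libraries as Id2 apart from the near-equal CKO pair. Rpf1, a ribosome assembly factor (r = 0.972), and Mff, a mitochondrial fission factor (r = 0.96), came next. Id3 was closest to Izumo1r, the folate receptor 4 of regulatory T cells (r = 0.982), then to the ubiquitin ligase gene Rnf19a (r = 0.98) and the RNA-binding protein gene Pcbp4 (r = 0.977). Izumo1r stood at 47.5 and 39.3 FPKM in BTg, 60.4 and 68.5 FPKM in CKO, and 59.9 and 51.4 FPKM in WT.

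The genes closest to Tcf4 were Birc5, the mitotic protein survivin (r = 0.999), Bub1b, a kinase of the spindle checkpoint (r = 0.998), and Tmem39b (r = 0.998). Birc5 stood at 4.26 and 5.46 FPKM in BTg, 28.2 and 15.5 FPKM in CKO, and 3.37 and 17.0 FPKM in WT, so WT replicate 1 was lowest and CKO replicate 1 highest for both genes. Birc5 and Bub1b are genes of dividing cells, whose part in the Tcf4 level was not tested.

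Tcf3 was closest to Hs6st1, a heparan sulfate sulfotransferase (r = 0.994), Prpsap1 (r = 0.993) and Napa, a membrane fusion factor (r = 0.992), which were likewise higher in replicate 2 of every group. Tcf12 was closest to Lsm14a, an RNA-binding protein of processing bodies (r = 0.998), Lemd3, an inner nuclear membrane protein (r = 0.981), and Cox11, a cytochrome oxidase assembly factor (r = 0.979). Over 6 libraries such values are reached by many genes. At least 0.9 was reached by 20 genes for Id2 and 18 for Id3, but by 868 for Tcf3, 778 for Tcf4 and 164 for Tcf12. Between Id2 and Id3 themselves r was 0.716, and between Tcf3 and Tcf12 it was 0.736.

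**Figure D4:**
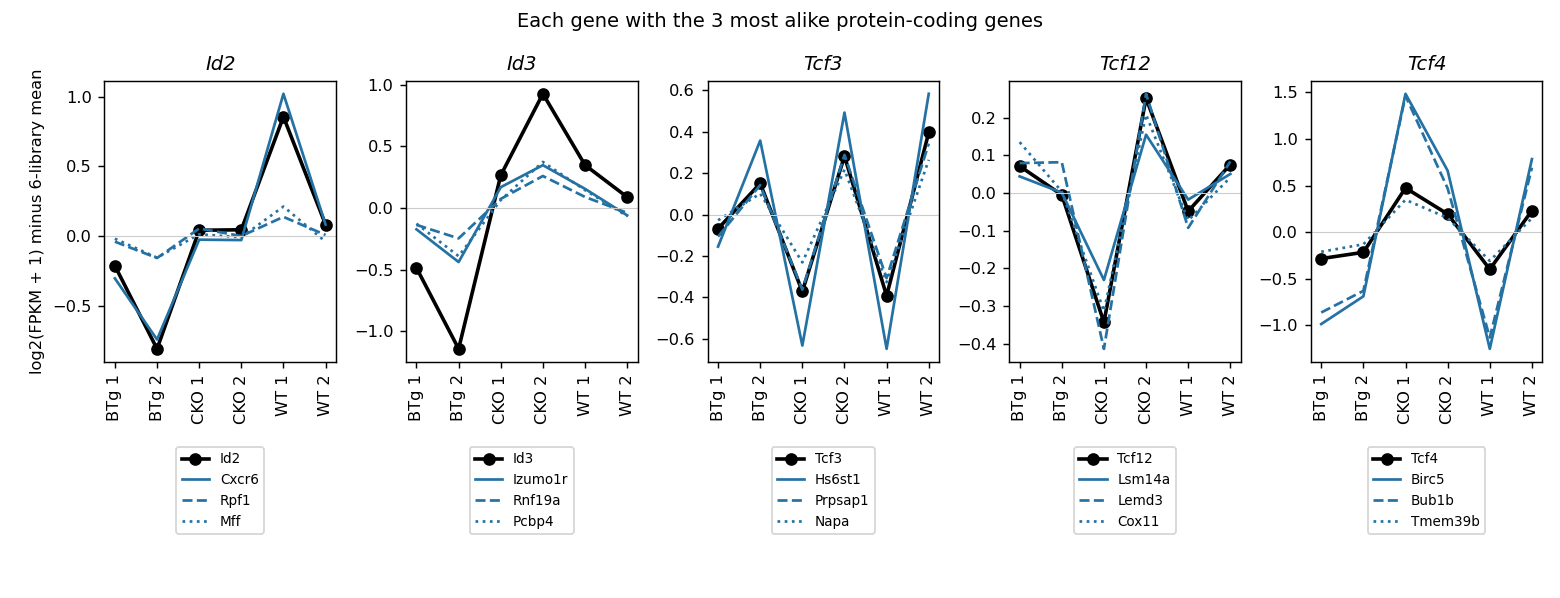
Each of the 5 genes (black) and its 3 closest protein-coding genes (blue) in the 6 libraries, as log2(FPKM + 1) minus the mean of the 6, with a scale of its own in each panel. Tcf4 runs with Birc5 and Bub1b, with CKO replicate 1 highest and WT replicate 1 lowest, and Tcf3 is higher in replicate 2 of each group.

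Genes known to act on the Id genes or to compete for E-boxes formed a list of 8, all of which passed the filter. Between BTg and WT 5 were higher and 3 lower, with Prdm1 counted among them. Prdm1, overexpressed in BTg by the label, alone passed the threshold, and its direction there was set by the design. It rose by 4.93 (SE 0.30) in log2, with limma adjusted p = 0.00761, a call that ended without either WT replicate (adjusted p = 0.199 without replicate 1, 0.175 without replicate 2). Between CKO and WT 5 were higher and 3 lower and 0 passed, and between BTg and CKO 5 were higher and 3 lower and Prdm1 alone passed, 4.59 (SE 0.30) higher with limma adjusted p = 0.0124. That call ended without BTg replicate 2 (adjusted p = 0.0837), CKO replicate 1 (0.121), WT replicate 1 (0.0987) or WT replicate 2 (0.0975). Without a filter on low values neither call held (0.105 and 0.0701), and with quantile normalization that between BTg and CKO did not (0.0583). The list's median, with Prdm1 included, was 0.18, 0.18 and 0.49 in that order of comparisons, beside 0.01, -0.02 and 0.05 over all genes tested.

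Egr1, a factor induced by receptor signalling and an activator of Id3, stood at 16.7 and 13.9 FPKM in BTg, 9.35 and 12.1 FPKM in CKO, and 9.96 and 11.0 FPKM in WT. Egr3, of the same family, stood at 7.66 and 8.51 FPKM in BTg, 3.62 and 7.92 FPKM in CKO, and 6.43 and 7.90 FPKM in WT. Smad3, a transducer of TGF-beta signals, stood at 16.1 and 17.6 FPKM in BTg, 9.46 and 14.3 FPKM in CKO, and 11.1 and 13.3 FPKM in WT. Egr1 and Smad3 were thus above both WT libraries in both BTg libraries, as were 14.5% of all genes tested, without passing the threshold (limma adjusted p = 1 for each). Egr2, another Egr factor, ran the other way and was chosen after its values were seen. It stood at 2.43 and 2.97 FPKM in BTg, 6.53 and 7.20 FPKM in CKO, and 3.64 and 4.24 FPKM in WT. Its log2 difference was -0.42 between BTg and WT, 0.67 between CKO and WT and -1.09 between BTg and CKO (SE 0.24 each; limma adjusted p = 1, 0.986 and 0.209). Nfil3 and Zeb2 of the list had the same signs as Egr2 in each comparison, and are likewise named after their values were seen. Nfil3 differed by -1.68 between BTg and CKO (SE 0.35, limma adjusted p = 0.186), the widest of the list there after Prdm1.

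Genes that E proteins are known to activate or occupy formed a list of 12. Of these 11 had a row in the table and 8 passed the filter, since Rag1, Rag2 and Notch3 had at most 17 reads in any library. Between BTg and WT 3 were higher and 5 lower and 0 passed, and between CKO and WT 5 were higher and 3 lower and 0 passed. Between BTg and CKO 2 were higher and 6 lower, and Cxcr5 fell past the threshold. The medians were -0.23, 0.29 and -0.56, beside 0.01, -0.02 and 0.05 over all genes tested.

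The chemokine receptor gene Cxcr5, which guides T cells into B cell follicles, stood at 4.01 and 3.01 FPKM in BTg, 30.0 and 31.6 FPKM in CKO, and 11.5 and 7.85 FPKM in WT. The log2 difference between BTg and CKO was -2.82 (SE 0.27; limma adjusted p = 0.0463). That call held in 5 of 16 alternatives, with adjusted p from 0.0176 to 0.321 over them, and it ended without BTg replicate 1 (0.183), BTg replicate 2 (0.321), CKO replicate 1 (0.196), WT replicate 1 (0.13) and WT replicate 2 (0.131). Cxcr5 overlaps Bcl9l on the other strand, and the division of reads between the pair is unknown. Both Id3 and Cxcr5 were therefore lowest in the BTg libraries and had their highest library in CKO.

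Il7r, the interleukin-7 receptor chain, stood at 37.7 and 43.6 FPKM in BTg, 41.3 and 85.8 FPKM in CKO, and 117 and 86.7 FPKM in WT. Its log2 difference was -1.29 (SE 0.40) between BTg and WT (limma adjusted p = 1). Foxo1, a transcription factor that sustains Il7r, stood at 35.4 and 40.6 FPKM in BTg, 11.6 and 27.6 FPKM in CKO, and 26.1 and 29.5 FPKM in WT, with a difference of 1.03 (SE 0.40) between BTg and CKO (limma adjusted p = 0.438). Without CKO replicate 1 this difference was 0.44 (adjusted p = 1), and without CKO replicate 2 it was 1.63 and passed (adjusted p = 0.0326), both in fits with a single CKO library. Notch1, a receptor of T cell development, stood at 13.2 and 18.0 FPKM in BTg, 7.39 and 15.9 FPKM in CKO, and 10.7 and 14.0 FPKM in WT. Between BTg and WT the difference of Foxo1 was 0.44 (SE 0.40; limma adjusted p = 1), opposite in sign to that of Il7r.

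**Figure D5:**
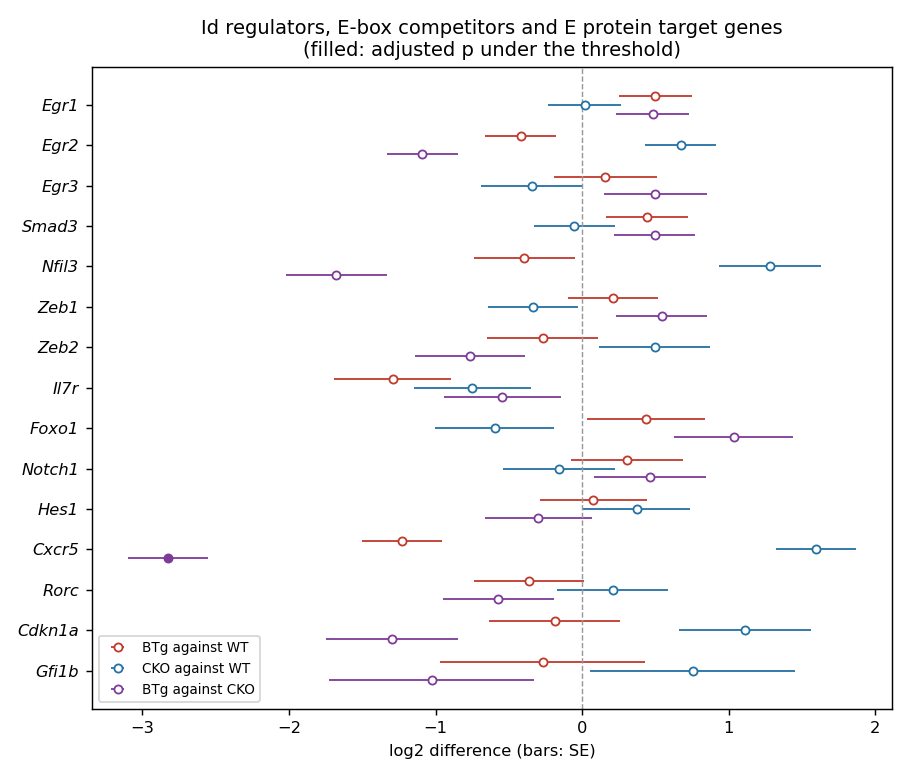
Log2 differences with their standard errors for Id regulators and E-box competitors (Egr1 to Zeb2) and E protein target genes (Il7r to Gfi1b) in the 3 comparisons; Prdm1 is left out because its differences of 4.59 and 4.93 exceed the scale. Cxcr5 between BTg and CKO, at -2.82, is the only filled point.

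Other helix-loop-helix proteins that pair with E proteins formed a list of 10, of which 8 had a row in the table and 3 passed the filter. Between BTg and WT 1 of the 3 was higher and 2 lower, between CKO and WT 3 were higher, and between BTg and CKO 3 were lower, with 0 past the threshold each time. Their medians were -0.56, 0.81 and -1.16. Tal1, a factor of erythroid and stem cells, stood at 5.34 and 8.01 FPKM in BTg, 13.3 and 18.8 FPKM in CKO, and 3.99 and 24.0 FPKM in WT. The 5 erythroid markers, in the same order of libraries, summed to 114 and 177 FPKM in BTg, 435 and 707 FPKM in CKO, and 98.3 and 1148 FPKM in WT.

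Lyl1, a relative of Tal1 in blood progenitors, stood at 4.33 and 6.76 FPKM in BTg, 41.1 and 13.5 FPKM in CKO, and 5.12 and 16.3 FPKM in WT. Bhlha15, a factor of secretory cells including plasma cells, stood at 1.09 and 0.938 FPKM in BTg, 3.46 and 1.68 FPKM in CKO, and 0.724 and 1.24 FPKM in WT, while the 5 plasma cell markers summed to 296 and 171 FPKM in BTg, 2156 and 529 FPKM in CKO, and 366 and 330 FPKM in WT. Id1, another Id protein, had 3 and 11 reads in BTg, 139 and 13 in CKO, and 11 and 13 in WT, so that CKO replicate 1, the library with the highest neutrophil marker sum, stood alone. The part of other cells in these levels was not tested. Ascl2, an E protein partner that drives Cxcr5 in follicular helper cells, was chosen after its values were seen and had 2 and 11 reads in BTg, 58 and 28 in CKO, and 20 and 10 in WT.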

How the data were processed

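Per the labels' protocols, RNA was extracted with TRIzol and libraries were made with a NEBNext Ultra kit. The submitters' processing notes name Trimmomatic 0.38, HISAT2 2.1.0, featureCounts 1.6.0 and GRCm38, but no settings, annotation or strandedness. The authors deposited 1 table of FPKM values for 28914 Ensembl genes, all found in GENCODE M21. These FPKM divide by a gene's median transcript span with introns: with it 100% of values came out as whole reads within 0.01, against 21.2 to 22.9% with merged exon length. Each gene was therefore rescaled to merged exon length, which changes the filter, the pseudocount and levels between genes, but not a gene's ratio between libraries.

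The test was limma (R 4.3.3, limma 3.58.1) on log2(FPKM + 1) over the 13488 genes reaching 1 FPKM in 2 or more libraries, in 1 fit of all 6, with a trend, no block, and a threshold of 0.05 on p-values adjusted by Benjamini-Hochberg. Limma voom took recovered reads, at least 10 in 2 libraries. Sample titles give the groups and, in brackets, the replicate numbers; both BTg titles carry a 1 before the brackets. The genes and lists were chosen with earlier results of these data known. Also named were the 4 most abundant genes of each list, those past the threshold, and the 3 closest to each of the 5. The 16 alternatives are given in the closing section. Figures used matplotlib 3.10.9, and promoters are RefSeq's (GRCm38.p6).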

Additional observations from a re-analysis of the deposited data

How the results depend on the processing

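None of the 5 genes passed the threshold in any of 231 values under 16 alternatives, and 219 of these kept the direction. Id2 and Id3 kept theirs in each comparison under each alternative. Some alternatives could not change a difference, only its p-value. These were the changes of filter, the fit without a trend, the replicate block, and leaving out a library of the group not compared. The direction was fixed in advance there, so the 219 values are not all separate checks of it. The 12 that turned all left out 1 library; over such fits Tcf3 spanned -0.36 to 0.43 between BTg and WT, -0.44 to 0.35 between CKO and WT and -0.24 to 0.41 between BTg and CKO, Tcf12 spanned -0.042 to 0.081, -0.36 to 0.24 and -0.22 to 0.38, and Tcf4 between BTg and WT spanned -0.48 to 0.15. Without reversing, Tcf4 between CKO and WT spanned 0.10 to 0.73. Fewer samples enter each such fit, and where 1 library is left in a group it is assumed to vary like the other groups. For Id3 the difference between BTg and WT ran from -1.36 to -0.70 over all alternatives (adjusted p 0.988 to 1) and that between BTg and CKO from -1.74 to -1.08 (adjusted p 0.128 to 0.89).

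The count of genes called between BTg and WT was 2, against 4 with a pseudocount of 0.1, 6 by limma voom, 0 without a filter, 0 with a replicate block and 0 to 3 with 1 library left out. Between CKO and WT it was 0, against 0 to 209 with 1 library left out, the 209 without CKO replicate 2. Between BTg and CKO it was 9, against 2 on FPKM as deposited, 2 with median of ratios scaling, 0 with quantile normalization, 3 without a trend, 29 by limma voom, 0 without a filter, 0 with a replicate block and 0 to 673 with 1 library left out, the 673 without CKO replicate 2. The causes were not tested. The labels give the replicate numbers no shared origin. Same-numbered libraries deviated together by r = 0.443 (BTg and CKO), 0.468 (BTg and WT) and 0.135 (CKO and WT), with only 2 pairs. With the block, Id3 between BTg and CKO was -1.41 with adjusted p = 0.231, and the Prdm1 calls ended (adjusted p = 0.0607 between BTg and WT, 0.0692 between BTg and CKO), as did that of Cxcr5 between BTg and CKO (0.0692).

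The mean ratio of Id to E protein transcripts was 0.602 in BTg, 1.07 in CKO and 1.36 in WT. On FPKM as deposited it was 4.86, 9.39 and 11.1, and per median spliced transcript length 0.448, 0.714 and 0.97; both scales were chosen after seeing the data, and so were the alternatives for Prdm1, Cxcr5, Il7r and Foxo1. With 1 library left out it was 0.435 to 0.77, 0.91 to 1.23 and 0.743 to 1.98. With 2 libraries a group, differences the size of those seen for the 5 genes did not pass over 13488 genes, or for Tcf4 over 28914 without a filter. Id3 had 109 reads in its lowest library, and the part of read depth was not tested.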
